A study of Mus musculus with 233 samples.

Results

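The 32 genes described here make, sense, move and remove cholesterol, and were chosen by symbol and matched to 32 of the 41129 gene entries of the deposited count table. They comprise 8 enzymes from acetyl-CoA to the isoprenoids (Acat2, Hmgcs1, Mvk, Pmvk, Mvd, Idi1, Fdps and Ggps1), 12 enzymes from squalene to cholesterol (Fdft1, Sqle, Lss, Cyp51, Tm7sf2, Lbr, Msmo1, Nsdhl, Hsd17b7, Ebp, Sc5d and Dhcr7), 5 regulators (Srebf1, Srebf2, Insig1, Scap and Nr1h2), 5 genes of cholesterol transport (Stard4, Abca1, Apoe, Npc1 and Npc2) and 2 genes of turnover and storage (Cyp46a1 and Soat1). All 32 passed the filter on low counts in all 5 paradigms, so every member was tested in every comparison.

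The study measured polyA RNA of mouse striatum in 233 libraries from 120 mice. Heterozygous zQ175DN knock-in mice, called zQ175, carry 1 Htt allele whose first exon is the human one with a long CAG tract, and their wild-type littermates, called WT, carry none. Each hemisphere received an AAV: nZFP makes the zinc finger repressor ZFP30645 against expanded CAG repeats in neurons, from the human synapsin promoter. DBD makes the same protein without its DNA-binding domain from that promoter, and Estop holds a stuffer that makes no protein. The 5 paradigms name age at injection and at collection in months, 2M_6M, 2M_8M, 6M_8M, 6M_10M and 6M_12M, that is 4, 6, 2, 4 and 6 months after injection. The 6 groups in each were zQ175 nZFP, zQ175 DBD, zQ175 Estop, WT nZFP, WT DBD and WT Estop, with 6 to 8 libraries from as many mice. Males and females entered each fit with sex as a covariate, and lists of 5 values keep the order of the paradigms above. Of the mice, 113 gave 2 libraries under different viruses, so groups of a paradigm share animals. The repressor acts in neurons while the tissue also holds glia.

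Libraries held 28.0 to 61.3 M expected counts of genes, with a median of 37.4 M, where M stands for 1000000. In 4 libraries the vector transcripts went against the label, namely those labelled WT DBD R7 and R8 and zQ175 nZFP R5 in 6M_8M and WT DBD R6 in 2M_6M. A further 13 libraries stood apart by a length index, the median log2 deviation of the 20% longest genes minus that of the 20% shortest, at more than 5 median absolute deviations from the paradigm's median. Among the 4 nZFP and DBD groups these were zQ175 DBD R3 and WT DBD R7 in 2M_6M, WT nZFP R8 in 6M_8M, zQ175 nZFP R2 and WT DBD R2 in 6M_10M, and zQ175 DBD R1, WT nZFP R1 and R3, and WT DBD R1 and R2 in 6M_12M. Htt, the targeted gene, counted over both alleles and all cells, differed between zQ175 DBD and WT DBD libraries by -0.54, -0.53, -0.22, -0.33 and -0.53 on the log2 scale, and the first 2 values passed (adjusted p = 7.8e-05 and 0.03). Between zQ175 nZFP and zQ175 DBD libraries it differed by -0.08, -0.32, -0.06, -0.45 and -0.07, with no value past the threshold (adjusted p = 0.57, 0.31, 1, 0.33 and 0.87). Ppp1r1b, which marks the medium spiny neurons of striatum, ranged from 1434 to 5631 CPM over all libraries, and Slc17a7, a cortical neuron marker, from 0.608 to 96 CPM.

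The brain makes nearly all of its own cholesterol, because lipoproteins of the blood hardly cross the blood-brain barrier. Acetyl-CoA is turned into mevalonate, isoprenoids, squalene and lanosterol and then into cholesterol, under the transcription factor SREBP2 (gene Srebf2), which the escort protein SCAP brings to its proteases when sterols are low and INSIG1 holds back when they are high. Astrocytes export cholesterol on ApoE particles loaded by ABCA1, the neuronal enzyme CYP46A1 hydroxylates cholesterol so that it can leave the brain, and lower output of this pathway has been described in Huntington's disease models.

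Promoter stretches are shown for 5 members whose expression the results below turn on, as the places where the SREBP2 and NF-Y sites that drive this pathway are usually found. RefSeq windows on GRCm38.p6 were at hand for 27 of the 32 members, and the 250 bases before the start were searched on both strands for the sterol regulatory element written TCACNCCAC and for the NF-Y box CCAAT, whose matches did not overlap each other. A gene with several windows counted if any of them held a match. Capitals mark the matches, with CCAAT read as ATTGG on the other strand, and all stretches run 5′ to 3′ along the gene.
Hmgcs1 (chr13:119690101-119690325, + strand): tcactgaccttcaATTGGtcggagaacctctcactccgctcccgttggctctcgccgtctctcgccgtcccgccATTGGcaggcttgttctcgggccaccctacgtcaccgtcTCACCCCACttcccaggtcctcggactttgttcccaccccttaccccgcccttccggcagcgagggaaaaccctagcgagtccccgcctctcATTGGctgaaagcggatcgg
Mvk (chr5:114444081-114444268, + strand): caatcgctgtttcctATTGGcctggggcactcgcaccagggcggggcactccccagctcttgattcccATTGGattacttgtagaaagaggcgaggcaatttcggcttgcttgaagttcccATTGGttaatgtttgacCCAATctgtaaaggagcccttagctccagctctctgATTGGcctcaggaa
Insig1 (chr5:28071181-28071215, + strand): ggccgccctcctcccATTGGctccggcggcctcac
Srebf2 (chr15:82147119-82147153, + strand): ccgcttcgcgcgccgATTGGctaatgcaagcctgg
Cyp46a1 (chr12:108334148-108334182, + strand): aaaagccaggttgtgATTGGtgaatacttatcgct

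CCAAT was present in the windows of 22 of the 27 members (81.5%), against 39.7% of the 12420 tested genes with a window and 37.5% of all symbols with one. It stood in all 10 enzymes of the sterol branch with a window, with 2 or more copies in 6 of them, in 6 of 7 mevalonate enzymes, 3 of 5 regulators, 1 of 3 transport genes and both turnover genes. TCACNCCAC was found in 1 member, Hmgcs1 (3.7%), against 1.22% of the tested genes. Acat2, Apoe, Abca1, Scap and Nr1h2 had no match of either motif in these windows, which says only that the letters are not there.

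Levels were compared between genes on the TPM scale, which corrects for gene length. Apoe was far above the other members. Medians over the 39 WT DBD libraries, with the lowest and highest library, were 4587 TPM (2751 to 6804) for Apoe and 272 TPM (133 to 317) for Cyp46a1, followed by 121 TPM (46.1 to 162) for Srebf2, 92 TPM (57.7 to 113) for Hmgcs1 and 76.7 TPM (54.5 to 92.9) for Msmo1. Apoe and Cyp46a1 were apart in every one of these libraries, whereas the ranges of Cyp46a1, Srebf2, Hmgcs1 and Msmo1 each overlapped with the next. The lowest medians were those of Soat1, which esterifies cholesterol for storage, at 8.46 TPM (4.58 to 14.9), and of Lbr, the lamin B receptor with sterol reductase activity, at 5.43 TPM (3.47 to 8.65). Tm7sf2, which has the same reductase activity as Lbr, stood at 10.4 TPM (7.91 to 14), and Srebf1 stood at 47.3 TPM (25.4 to 70.6). The plot of levels gives both genotypes, and in it the lowest zQ175 DBD values of Npc1, Srebf2 and Lss, at 6.69, 19.7 and 2.13 TPM, lie far below their medians of 52.4, 108 and 12 TPM.

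**Figure D1:**
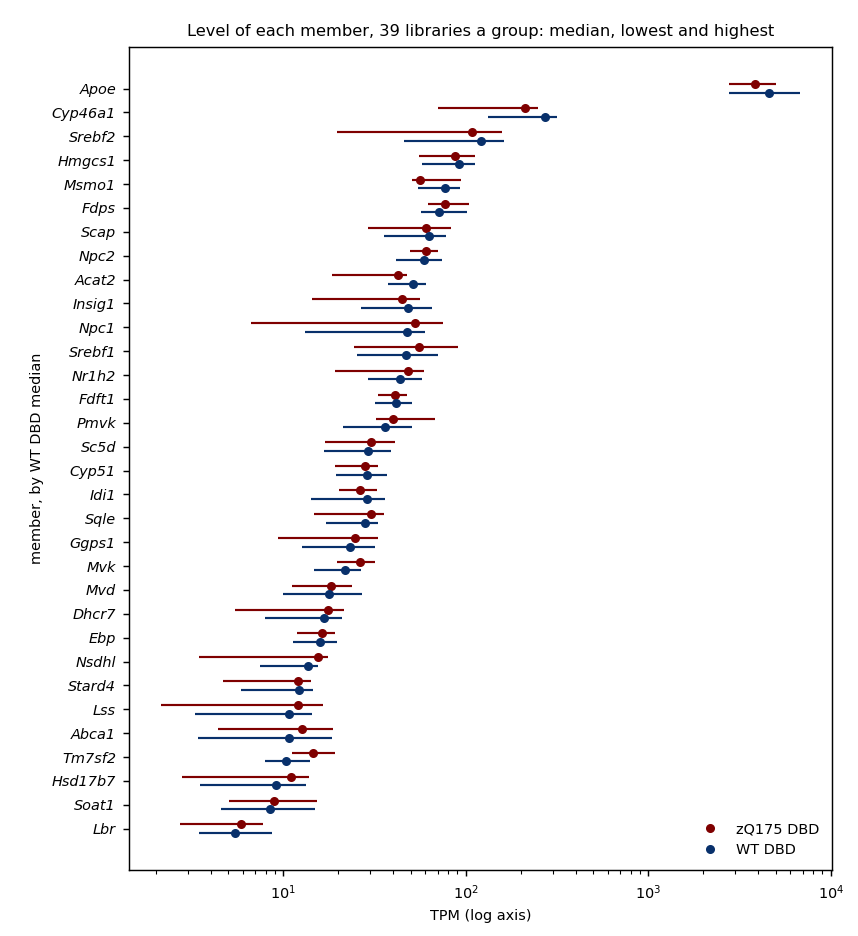
Level of each of the 32 members in TPM on a log axis, with the median as a point and the lowest to highest library as a line, for zQ175 DBD above and WT DBD below (39 libraries each, 5 paradigms together). Apoe lies at 3860 TPM in zQ175 DBD and 4587 TPM in WT DBD libraries, and Lbr at 5.89 and 5.43 TPM.

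The genotype comparison set zQ175 DBD against WT DBD libraries and asked how the expanded allele changed these genes under the control virus. Cyp46a1 and Acat2 were lower in zQ175 in all 5 paradigms, Msmo1 in 4 and Apoe in 3, while Mvk was higher in 3. A member counted as called at a Benjamini-Hochberg adjusted p under 0.05 over all genes tested, in edgeR's quasi-likelihood test. The number of members called higher was 4, 1, 1, 3 and 2. The number called lower was 4, 7, 3, 8 and 4. Called members made up 25, 25, 12.5, 34.4 and 18.8 percent of the 32, against 28.7%, 18.7%, 9.12%, 24.2% and 18.3% of all genes tested. By direction, 17.2%, 9.32%, 3.98%, 11.9% and 9.14% of all genes were higher and 11.5%, 9.37%, 5.15%, 12.3% and 9.14% lower. As a set the members thus changed about as often as other genes of the tissue. Their median log2 fold change was 0.00, 0.00, -0.05, -0.04 and 0.02, against 0.03, 0.00, 0.01, -0.01 and 0.00 over all genes tested. Over the 5 paradigms 17 members were called at least once, 7 of them higher and 10 lower, and no member was called in both directions. The share of all genes called at least once is not given here, so this count is not read as a result about the members. Lower in all 5 paradigms were 2 of 32 members, against 3.35% of the genes tested in all 5. Lower in at least 3 were 4 of 32, against 8.1%, and higher in at least 3 was 1 of 32, against 7.97%.

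**Figure D2:**
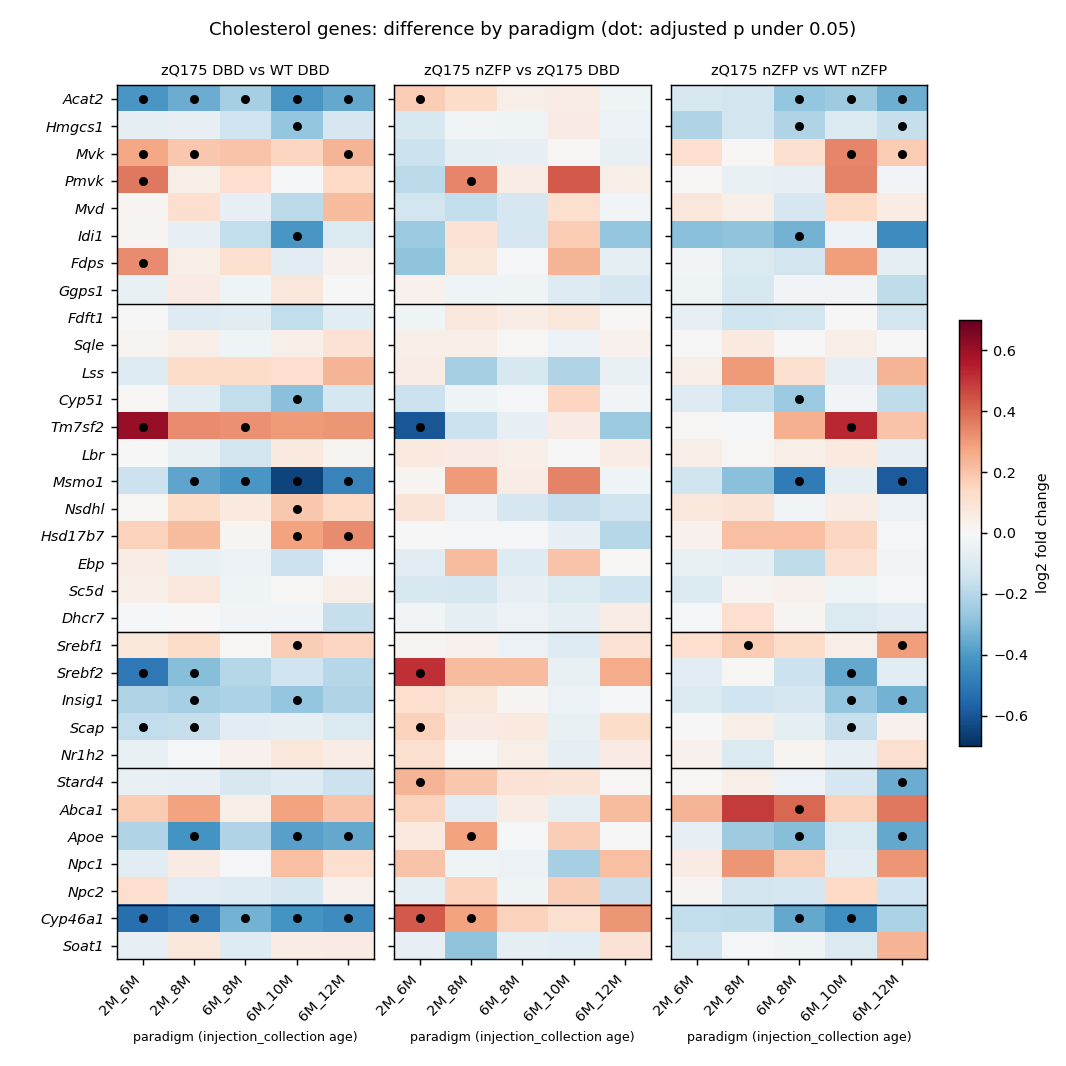
Log2 fold change of the 32 members (rows, grouped by role from mevalonate enzymes at the top to turnover at the bottom) in 5 paradigms (columns) for 3 comparisons, red higher and blue lower in the group named first, with a dot where the adjusted p is under 0.05. Cyp46a1 and Acat2 are blue with a dot in all 5 columns of the first panel, and the dots of the second panel lie in its 2M_6M and 2M_8M columns, 9 in all.

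Among the mevalonate enzymes, Acat2 is the cytosolic thiolase that joins acetyl-CoA units at the head of the pathway (chr17:12942890-12960747, GRCm38). Its lowest, median and highest values in zQ175 DBD libraries were 30, 41 and 43.8 CPM in 2M_6M, 38.3, 41.1 and 43.9 CPM in 2M_8M, 35.5, 39.4 and 41.3 CPM in 6M_8M, 36.9, 41.5 and 43.1 CPM in 6M_10M, and 34.5, 39.7 and 43.9 CPM in 6M_12M. In WT DBD libraries they were 48.6, 52.2 and 62 CPM in 2M_6M, 47.7, 52.7 and 57 CPM in 2M_8M, 38.6, 48.6 and 50.4 CPM in 6M_8M, 50, 53.9 and 59.3 CPM in 6M_10M, and 46, 50.6 and 59.6 CPM in 6M_12M. The groups did not overlap in 2M_6M, 2M_8M, 6M_10M and 6M_12M, and in 6M_8M the 2 WT DBD libraries inside the zQ175 range, R7 and R8, were those whose vector went against the label. Acat2 differed by -0.41, -0.35, -0.23, -0.41 and -0.36 on the log2 scale (SE 0.04 to 0.07, adjusted p = 2.6e-06, 5e-08, 0.012, 3.6e-09 and 0.0001). Leaving out the libraries standing apart gave -0.33, -0.35, -0.23, -0.40 and -0.31. Acat3, a near copy of Acat2 that could share its reads, averaged 5.03 to 5.51 CPM in zQ175 DBD groups and 5.48 to 6.5 CPM in WT DBD groups. It went in the same direction, by -0.18, -0.24, -0.09, -0.17 and -0.31. It was not called in any paradigm (adjusted p = 0.29, 0.068, 0.57, 0.17 and 0.055).

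Hmgcs1 makes HMG-CoA, from which mevalonate is made, and is the member with the sterol regulatory element printed above (chr13:119690379-119708260); an antisense gene, Gm48342, overlaps it. Its zQ175 DBD libraries had 122, 130 and 165 CPM in 2M_6M, 120, 134 and 153 CPM in 2M_8M, 106, 123 and 128 CPM in 6M_8M, 112, 125 and 135 CPM in 6M_10M, and 107, 118 and 131 CPM in 6M_12M as lowest, median and highest values. Its WT DBD libraries had 126, 145 and 174 CPM in 2M_6M, 128, 135 and 158 CPM in 2M_8M, 112, 136 and 144 CPM in 6M_8M, 137, 145 and 167 CPM in 6M_10M, and 109, 131 and 144 CPM in 6M_12M. The ranges overlapped except in 6M_10M, where Hmgcs1 was lower, at -0.27 on the log2 scale (SE 0.06, adjusted p = 0.00021). In the other paradigms it differed by -0.07, -0.06, -0.14 and -0.12 in 2M_6M, 2M_8M, 6M_8M and 6M_12M and did not pass. With Estop as the control in both genotypes it was lower in all 5 paradigms, at -0.25, -0.26, -0.21, -0.16 and -0.18 (adjusted p = 0.0052, 0.0036, 0.0072, 0.03 and 0.014).

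Mvk phosphorylates mevalonate (chr5:114444269-114460591). In zQ175 DBD libraries its values ran at 16.4, 18.1 and 23.6 CPM in 2M_6M, 17.2, 18.8 and 20.8 CPM in 2M_8M, 14.9, 16.3 and 18 CPM in 6M_8M, 15.4, 18.4 and 19.9 CPM in 6M_10M, and 18.5, 19.9 and 21.2 CPM in 6M_12M. In WT DBD libraries they ran at 14.3, 15.9 and 17.8 CPM in 2M_6M, 15.4, 16.1 and 19.1 CPM in 2M_8M, 11.8, 13.9 and 17.6 CPM in 6M_8M, 13.3, 15.3 and 26.1 CPM in 6M_10M, and 14.2, 16.5 and 18.7 CPM in 6M_12M. Its medians were higher in zQ175 in all 5 paradigms, but the ranges overlapped in each, and in 6M_10M WT DBD R2, one of the libraries standing apart, was above every zQ175 DBD library. Mvk differed by 0.27, 0.19, 0.20, 0.15 and 0.24 (SE 0.06 to 0.11, adjusted p = 0.0025, 0.049, 0.098, 0.34 and 0.0041). It passed in 2M_6M, 2M_8M and 6M_12M. Leaving out the libraries standing apart, the value in 6M_10M was 0.27 (adjusted p = 0.0011), and with Estop as the control Mvk passed in all 5. The call in 2M_8M was lost with no filter on low counts, with RLE size factors and without the sex covariate.

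Of the other mevalonate enzymes, Pmvk, the next kinase, and Fdps, which makes farnesyl diphosphate, were called higher in zQ175 DBD libraries in 2M_6M and in no other paradigm, by 0.37 (SE 0.13, adjusted p = 0.026) and 0.33 (SE 0.11, adjusted p = 0.017). Neither kept its call without the libraries standing apart, at 0.07 and 0.12 (adjusted p = 0.38 and 0.16), nor with Estop as the control, at 0.01 and -0.01. Idi1, the isopentenyl diphosphate isomerase, was lower in 6M_10M with no overlap of the groups, 32.7 ± 2.13 CPM in zQ175 DBD libraries (n = 8) and 43.5 ± 8.78 CPM in WT DBD libraries (n = 8), a log2 difference of -0.41 (SE 0.11, adjusted p = 0.0027). Mvd and Ggps1 were not called in any paradigm.

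In the sterol branch, Msmo1 is the methylsterol monooxygenase that starts the removal of methyl groups from lanosterol products (chr8:64718139-64733792). Its zQ175 DBD libraries had lowest, median and highest values of 47.6, 57.2 and 118 CPM in 2M_6M, 50.2, 59.2 and 96.5 CPM in 2M_8M, 42.2, 44.7 and 52.9 CPM in 6M_8M, 46.9, 52.3 and 56.3 CPM in 6M_10M, and 45, 56.3 and 71.3 CPM in 6M_12M. The WT DBD libraries had 63.2, 71.9 and 78.3 CPM in 2M_6M, 67.7, 80.7 and 99.7 CPM in 2M_8M, 45.8, 62 and 71.6 CPM in 6M_8M, 69.7, 77.4 and 111 CPM in 6M_10M, and 56.2, 82.2 and 115 CPM in 6M_12M. Its zQ175 medians lay below those of WT in every paradigm, and the groups were apart in 6M_10M, while in 2M_6M the zQ175 DBD library R3 was higher than all WT DBD libraries. Msmo1 differed by -0.15, -0.37, -0.41, -0.65 and -0.47 (SE 0.09 to 0.13, adjusted p = 0.34, 0.026, 0.0025, 7.5e-06 and 0.009). The value in 6M_10M was the most negative of any member and paradigm in this comparison. Without the libraries standing apart it was called in 2M_6M as well, at -0.39 (adjusted p = 0.00013), and no longer in 6M_12M, at -0.36 (adjusted p = 0.069). With Estop as the control it passed in all 5, at -0.46, -0.46, -0.34, -0.38 and -0.46.

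The sterol enzymes did not share a direction. Tm7sf2, a sterol reductase, was higher in zQ175 DBD libraries in 2M_6M and 6M_8M, by 0.61 (SE 0.13, adjusted p = 0.0004) and 0.32 (SE 0.10, adjusted p = 0.035), and differed by 0.33, 0.30 and 0.31 in 2M_8M, 6M_10M and 6M_12M without passing. Without the libraries standing apart its value in 2M_6M was 0.38, still called, and that in 6M_10M passed at 0.41; Vps51 overlaps Tm7sf2 on the same strand, so reads of the 2 genes are not cleanly apart. Hsd17b7, the ketosteroid reductase that works with Msmo1 and Nsdhl on the same methyl groups, was higher in 6M_10M and 6M_12M, by 0.28 (SE 0.10, adjusted p = 0.041) and 0.33 (SE 0.08, adjusted p = 0.0033). Nsdhl, the dehydrogenase among these enzymes, was higher in 6M_10M, by 0.19 (SE 0.07, adjusted p = 0.029), where Cyp51, the lanosterol demethylase, was lower, at -0.29 (SE 0.07, adjusted p = 0.0017). Fdft1 and Sqle, which make and oxidise squalene, Lss, which closes the rings of lanosterol, and Lbr, Ebp, Sc5d and Dhcr7 were not called in any paradigm. Over the 20 enzymes of both branches, the called numbers were 4, 1, 1, 2 and 2 higher and 1, 2, 2, 5 and 2 lower, with median log2 fold changes of 0.01, 0.04, -0.03, -0.01 and 0.03.

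Among the regulators, Srebf2 encodes SREBP2, the main activator of the synthesis genes (chr15:82147181-82205379, overlapped on the same strand by the miRNA gene Mir33 and by Gm49502). Its lowest, median and highest values were 71.1, 214 and 239 CPM in 2M_6M, 224, 236 and 268 CPM in 2M_8M, 181, 218 and 276 CPM in 6M_8M, 236, 251 and 265 CPM in 6M_10M, and 197, 282 and 349 CPM in 6M_12M under DBD in zQ175. Under DBD in WT they were 244, 272 and 313 CPM in 2M_6M, 232, 291 and 355 CPM in 2M_8M, 228, 249 and 267 CPM in 6M_8M, 147, 293 and 302 CPM in 6M_10M, and 234, 309 and 372 CPM in 6M_12M. Every median was lower in zQ175, and the groups were apart in 2M_6M and overlapped in the other paradigms. Srebf2 differed by -0.50, -0.30, -0.20, -0.14 and -0.20 (SE 0.08 to 0.11, adjusted p = 0.0007, 0.0041, 0.093, 0.33 and 0.13). It passed in 2M_6M and 2M_8M. Its counts moved with the length index: the lowest library of zQ175 DBD in 2M_6M, R3, and of WT DBD in 6M_10M, R2, were libraries standing apart. Without those libraries Srebf2 differed by -0.37, -0.30, -0.20, -0.24 and -0.23 and passed in all 5 paradigms (adjusted p = 5.3e-06, 0.0041, 0.036, 8.6e-06 and 0.03). With Estop as the control the values were -0.23, -0.26, -0.21, -0.35 and -0.22, past the threshold in 2M_8M and 6M_10M.

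Insig1, the sterol-sensing anchor of SCAP and itself induced by SREBP2 (chr5:28071363-28078662), was lower by medians in all 5 paradigms. It had 28, 51.8 and 63.7 CPM in 2M_6M, 45.4, 55.2 and 63.1 CPM in 2M_8M, 42.8, 52.4 and 57.8 CPM in 6M_8M, 44.3, 52.3 and 60 CPM in 6M_10M, and 43.2, 52.7 and 62 CPM in 6M_12M as lowest, median and highest values in zQ175 DBD libraries. In WT DBD libraries it had 45.9, 59.1 and 73.1 CPM in 2M_6M, 52.1, 66 and 76.1 CPM in 2M_8M, 50.7, 56 and 76.2 CPM in 6M_8M, 46.2, 62.6 and 77.7 CPM in 6M_10M, and 50.7, 60.8 and 72.6 CPM in 6M_12M. The groups overlapped in every paradigm, and the differences of -0.21, -0.23, -0.22, -0.27 and -0.21 (SE 0.08 to 0.11, adjusted p = 0.14, 0.047, 0.11, 0.0057 and 0.072) passed in 2M_8M and 6M_10M. Scap, the escort of SREBP2, was lower in 2M_6M and 2M_8M, at -0.17 (SE 0.04, adjusted p = 0.0016) and -0.16 (SE 0.05, adjusted p = 0.026). Srebf1, whose product acts mainly on fatty acid genes, was higher in 6M_10M, by 0.17 (SE 0.06, adjusted p = 0.026), and Nr1h2, the oxysterol receptor LXR-beta, was not called.

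**Figure D3:**
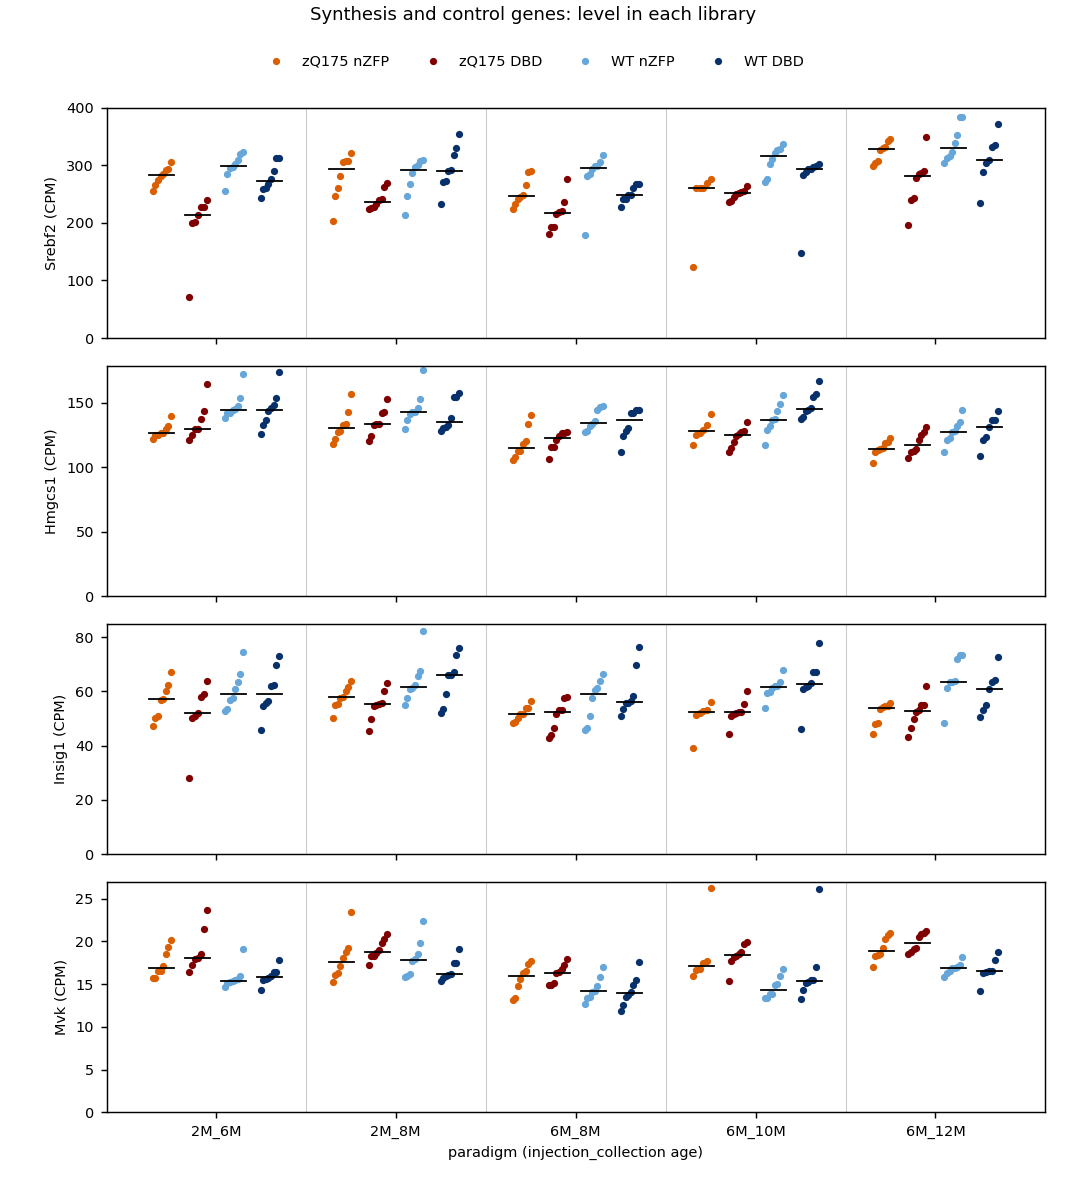
CPM of Srebf2, Hmgcs1, Insig1 and Mvk in each library, by paradigm and group from left to right zQ175 nZFP, zQ175 DBD, WT nZFP and WT DBD, with points of a group in rising order and a line at the median. In 2M_6M the Srebf2 points of zQ175 DBD lie at 71.1 to 239 CPM, below those of zQ175 nZFP and of WT DBD.

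**Figure D4:**
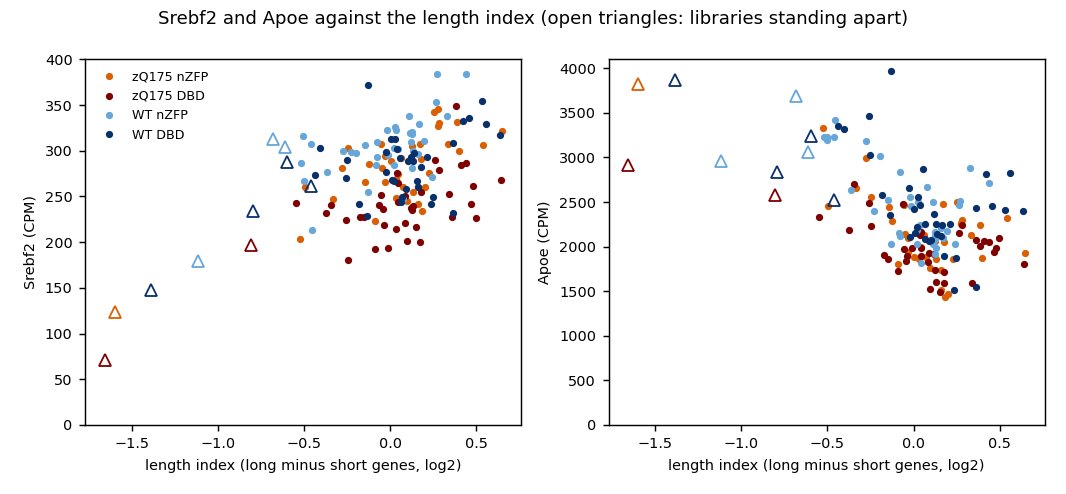
CPM of Srebf2 (left) and Apoe (right) against the length index of each library, with open triangles for libraries standing apart within their paradigm. The library zQ175 DBD R3 of 2M_6M, at a length index of -1.66, has 71.1 CPM of Srebf2 and 2913 CPM of Apoe.

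Among the transport genes, Apoe encodes the main lipid carrier of the brain, made mostly by astrocytes (chr7:19696109-19699188). In zQ175 DBD libraries its lowest, median and highest values were 1529, 1862 and 2913 CPM in 2M_6M, 1807, 2085 and 2492 CPM in 2M_8M, 1492, 1860 and 2227 CPM in 6M_8M, 1587, 1918 and 2160 CPM in 6M_10M, and 2005, 2197 and 2705 CPM in 6M_12M. In WT DBD libraries these were 2064, 2200 and 2555 CPM in 2M_6M, 2403, 2847 and 3468 CPM in 2M_8M, 1510, 2231 and 2581 CPM in 6M_8M, 1889, 2311 and 3865 CPM in 6M_10M, and 1548, 2840 and 3975 CPM in 6M_12M. Medians were lower in zQ175 in all 5 paradigms and the ranges overlapped in each. Apoe differed by -0.21, -0.42, -0.21, -0.38 and -0.36 (SE 0.09 to 0.13, adjusted p = 0.09, 0.0004, 0.18, 0.031 and 0.016) and passed in 2M_8M, 6M_10M and 6M_12M. When the libraries standing apart were left out it also passed in 2M_6M, at -0.33 (adjusted p = 0.00081). The summed level of the 10 astrocyte markers was 2111 to 4027 CPM (median 3476) in zQ175 DBD libraries and 2587 to 5233 CPM (median 4280) in WT DBD libraries, with 4, 4, 2, 4 and 3 of them called lower and none higher. Those calls made up 40, 40, 20, 40 and 30 percent of the list, against 28.7%, 18.7%, 9.12%, 24.2% and 18.3% of all genes. A list of reactive astrocyte genes, of which 7 or 8 were tested, instead had 1, 0, 0, 0 and 3 called higher and none lower. In bulk tissue, fewer astrocytes and less of these RNAs per astrocyte cannot be told apart.

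Abca1, the pump that loads cholesterol onto ApoE and a target of the LXR receptors (chr4:53030787-53159895), was not called in any paradigm. Its zQ175 DBD libraries had 34.2, 50.3 and 69 CPM in 2M_6M, 32.4, 50.5 and 65.2 CPM in 2M_8M, 56.5, 67.6 and 72.5 CPM in 6M_8M, 50.4, 60.6 and 81.8 CPM in 6M_10M, and 28.3, 58.7 and 68.8 CPM in 6M_12M. Its WT DBD libraries had 31.5, 47.3 and 51.1 CPM in 2M_6M, 27.9, 40.1 and 53.1 CPM in 2M_8M, 53.1, 65.5 and 73.8 CPM in 6M_8M, 22.4, 55.4 and 65.9 CPM in 6M_10M, and 30.3, 44.1 and 65.4 CPM in 6M_12M. The ranges overlapped throughout, and the differences were 0.18, 0.28, 0.04, 0.28 and 0.20 (SE 0.12 to 0.20, adjusted p = 0.26, 0.3, 0.9, 0.22 and 0.58). Stard4, which carries cholesterol through the cytosol, and Npc1 and Npc2, which release it from lysosomes, were not called either, at -0.15 to -0.05, -0.08 to 0.21 and -0.12 to 0.12 over the paradigms.

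Cyp46a1, the neuronal hydroxylase through which cholesterol leaves the brain (chr12:108334381-108362234), was lower in zQ175 in every paradigm. Its values in zQ175 DBD libraries were 108, 197 and 232 CPM in 2M_6M, 160, 195 and 204 CPM in 2M_8M, 159, 182 and 218 CPM in 6M_8M, 186, 196 and 217 CPM in 6M_10M, and 149, 208 and 234 CPM in 6M_12M. Its values in WT DBD libraries were 255, 281 and 307 CPM in 2M_6M, 233, 268 and 291 CPM in 2M_8M, 191, 233 and 278 CPM in 6M_8M, 228, 271 and 290 CPM in 6M_10M, and 205, 263 and 348 CPM in 6M_12M. The groups did not overlap in 2M_6M, 2M_8M and 6M_10M, while in 6M_8M the 1 WT DBD library inside the zQ175 range was R7, whose vector went against the label, and in 6M_12M the ranges overlapped. Cyp46a1 differed by -0.53, -0.49, -0.33, -0.42 and -0.44 (SE 0.05 to 0.11, adjusted p = 1.7e-06, 8.4e-08, 0.00043, 1.3e-08 and 0.0032). The values were -0.42, -0.49, -0.33, -0.44 and -0.50 without the libraries standing apart and -0.39, -0.45, -0.32, -0.44 and -0.40 with Estop as the control. All 5 paradigms passed each time. The 12 medium spiny neuron markers, summed, stood at 5316 to 9255 CPM (median 7526) in zQ175 DBD and 7670 to 17470 CPM (median 14254) in WT DBD libraries, with 11, 10, 11, 11 and 10 of them called lower and 1, 0, 0, 0 and 0 higher. Their part in the result was not tested. Soat1, which esterifies cholesterol for storage, was not called (-0.09 to 0.08).

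**Figure D5:**
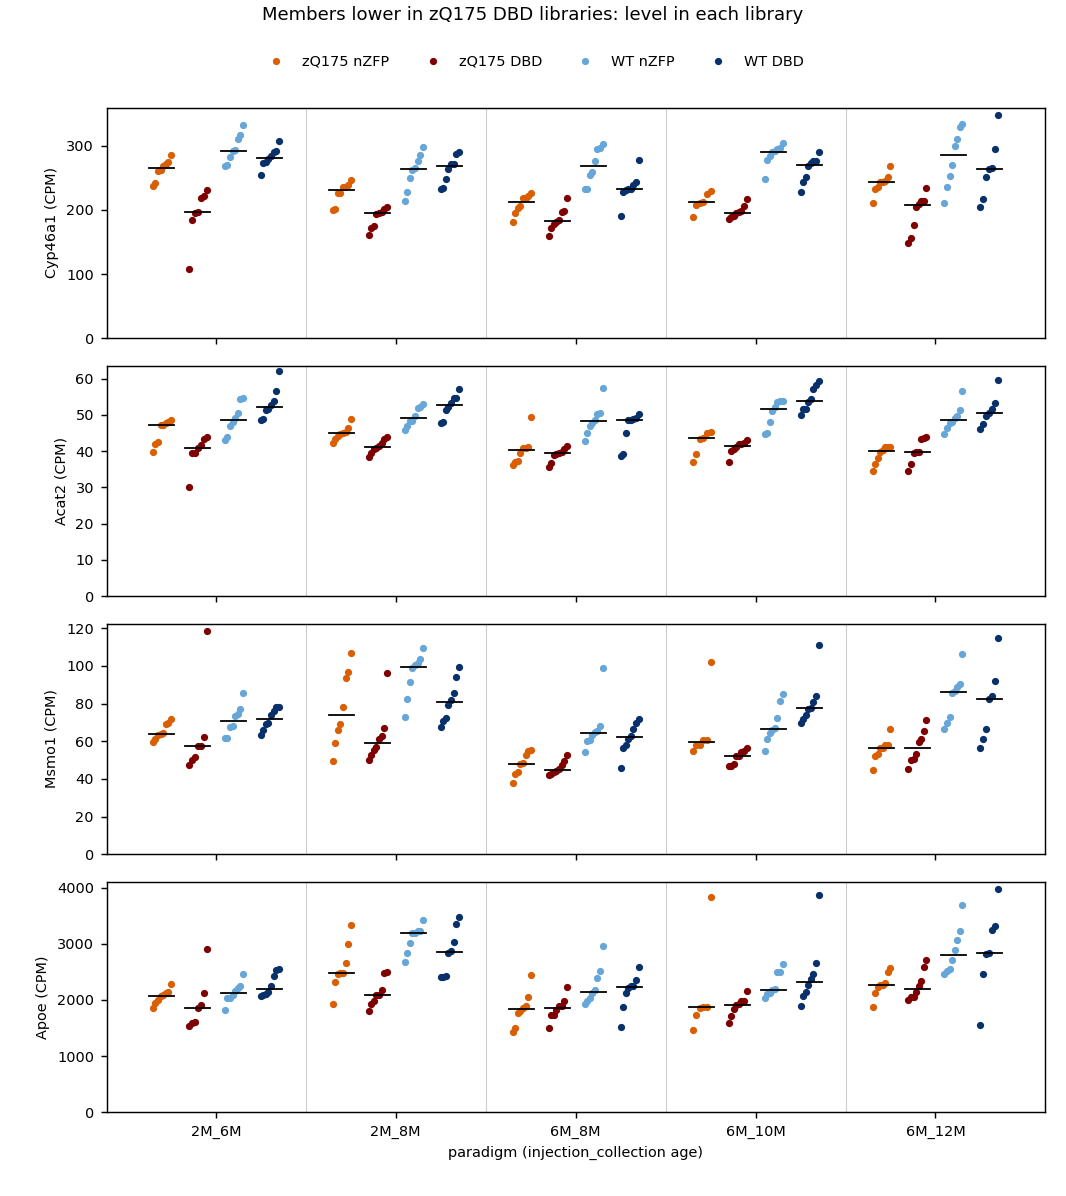
CPM of Cyp46a1, Acat2, Msmo1 and Apoe in each library, by paradigm and group from left to right zQ175 nZFP, zQ175 DBD, WT nZFP and WT DBD, with points of a group in rising order and a line at the median. Cyp46a1 and Acat2 of zQ175 DBD lie wholly below WT DBD in 2M_6M, 2M_8M and 6M_10M.

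Markers of other glia are given beside the share of all genes called between the genotypes, 28.7%, 18.7%, 9.12%, 24.2% and 18.3%. The 12 oligodendrocyte markers summed to 5821 to 11405 CPM (median 7231) in zQ175 DBD and 6208 to 13015 CPM (median 8568) in WT DBD libraries, with 4, 4, 2, 6 and 4 of 12 called lower and 1, 1, 0, 1 and 1 higher, or 41.7, 41.7, 16.7, 58.3 and 41.7 percent. Of 7 tested genes of newly formed oligodendrocytes, 1, 0, 0, 0 and 0 were lower and 1, 1, 1, 2 and 2 higher, and of 6 of oligodendrocyte precursors 1, 0, 0, 0 and 0 were lower and none higher. The 10 microglia markers summed to 464 to 800 CPM (median 613) in zQ175 DBD and 555 to 881 CPM (median 658) in WT DBD libraries, with 2, 2, 0, 2 and 1 called lower and none higher. At 20, 20, 0, 20 and 10 percent, the microglia calls were near or below the share of all genes called in either direction. They were above the share called lower, given with the genotype comparison, in 2M_6M, 2M_8M and 6M_10M, and near it in 6M_12M. The log2 difference was below 0 for 9, 10, 9, 10 and 9 of the 10 microglia markers. Oligodendrocytes and astrocytes express much of the synthesis pathway, and the part of these markers in the values of Msmo1, Hmgcs1, Idi1 and Cyp51 was not tested. No marker of these lists was at 0 in every library.

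The repressor comparison set zQ175 nZFP against zQ175 DBD libraries and asked which members changed under the repressor. Repression of the expanded allele itself was not measured here. After injection at 2 months, Cyp46a1 was higher under nZFP in both paradigms, Srebf2, Scap, Acat2 and Stard4 were higher and Tm7sf2 lower in 2M_6M, and Apoe and Pmvk were higher in 2M_8M. Numbers called were 5, 3, 0, 0 and 0 higher and 1, 0, 0, 0 and 0 lower, or 18.8, 9.38, 0, 0 and 0 percent of the 32, against 23.2%, 7.06%, 0.112%, 0.972% and 1.25% of all genes tested. Of all genes, 8.8%, 4.16%, 0.0438%, 0.562% and 0.676% were higher and 14.4%, 2.9%, 0.0687%, 0.41% and 0.573% lower. No member was called in the 3 paradigms injected at 6 months, where 2, 3 and 4 members had an unadjusted p under 0.05, and DESeq2 called none there. In 6M_12M, however, Cyp46a1 and Srebf2 passed with the mouse as a block, with the mouse as a random effect and after adjustment for the length index. In 2M_8M the length index differed between the viruses. Its median was -0.17 in zQ175 nZFP and 0.41 in zQ175 DBD libraries, and -0.36 in WT nZFP and 0.21 in WT DBD libraries. No library of these groups stood apart there, so leaving out such libraries does not address this. With the index as a covariate 5 members were higher and 1 lower in 2M_8M, beside 14.1% of all genes. Virus and index cannot be fully told apart there. Median log2 fold changes of the members were 0.02, 0.03, -0.01, 0.01 and 0.00, against -0.04, 0.00, -0.01, 0.01 and 0.00 over all genes tested. This comparison shares the zQ175 DBD libraries with the genotype comparison, so a value high or low in them moves both in opposite directions. The values are given side by side without a measure of their likeness.

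Cyp46a1 in zQ175 nZFP libraries had lowest, median and highest values of 238, 266 and 286 CPM in 2M_6M, 199, 231 and 247 CPM in 2M_8M, 182, 212 and 227 CPM in 6M_8M, 189, 212 and 229 CPM in 6M_10M, and 211, 244 and 269 CPM in 6M_12M. The zQ175 nZFP libraries were all above the zQ175 DBD libraries in 2M_6M, and overlapped with them in the other paradigms, with higher medians in each. It differed from zQ175 DBD by 0.43, 0.28, 0.16, 0.11 and 0.31 (SE 0.05 to 0.11, adjusted p = 0.00015, 0.0026, 0.73, 0.41 and 0.19), where the genotype difference had been -0.53, -0.49, -0.33, -0.42 and -0.44. Without the libraries standing apart the value in 2M_6M was 0.33 (adjusted p = 2.2e-05). Per paradigm, 3 to 4 zQ175 mice carried nZFP in one hemisphere and DBD in the other, and other mice carried Estop beside nZFP or DBD. With the mouse as a block, Cyp46a1 was higher in 2M_6M, 2M_8M and 6M_12M, by 0.44, 0.34 and 0.25 (adjusted p = 0.023, 0.00012 and 0.023). The medium spiny neuron markers summed to 6958 to 13256 CPM (median 10166) in zQ175 nZFP libraries, against 5316 to 9255 CPM (median 7526) in zQ175 DBD libraries, with 11, 10, 0, 7 and 5 of 12 called higher and 1, 0, 0, 0 and 0 lower. Their part in the result was not tested.

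Srebf2 in zQ175 nZFP libraries had 255, 283 and 306 CPM in 2M_6M, 204, 294 and 321 CPM in 2M_8M, 223, 247 and 291 CPM in 6M_8M, 124, 261 and 276 CPM in 6M_10M, and 299, 329 and 345 CPM in 6M_12M. All of them were above the zQ175 DBD libraries in 2M_6M, and in 6M_10M the lowest, R2, was a library standing apart. Srebf2 differed by 0.51, 0.22, 0.22, -0.05 and 0.26 (SE 0.08 to 0.11, adjusted p = 0.00099, 0.074, 0.56, 0.85 and 0.2). In 2M_6M it remained called without the library zQ175 DBD R3 and the other library standing apart, at 0.37 (adjusted p = 7.6e-06), but not with Estop as the control, at 0.22 (adjusted p = 0.23). With the mouse as a block it was 0.46, 0.26, 0.20, -0.17 and 0.19, past the threshold in 2M_8M and 6M_12M (adjusted p = 0.04 and 0.042) and not in 2M_6M (adjusted p = 0.061). Scap, its escort, was higher in 2M_6M, by 0.16 (SE 0.04, adjusted p = 0.0047). Insig1 had 47.1, 57 and 67.2 CPM in 2M_6M, 50.2, 57.9 and 63.7 CPM in 2M_8M, 48.3, 51.6 and 56.3 CPM in 6M_8M, 39.1, 52.4 and 56.1 CPM in 6M_10M, and 44.4, 53.9 and 55.8 CPM in 6M_12M under nZFP in zQ175, and differed by 0.12, 0.08, 0.02, -0.04 and -0.01 (SE 0.08 to 0.11), with no call.

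Acat2 in zQ175 nZFP libraries had 39.7, 47.2 and 48.6 CPM in 2M_6M, 42.3, 44.9 and 48.8 CPM in 2M_8M, 36.1, 40.2 and 49.5 CPM in 6M_8M, 37.1, 43.5 and 45.4 CPM in 6M_10M, and 34.4, 40.1 and 41.2 CPM in 6M_12M. Its ranges overlapped with zQ175 DBD in every paradigm, and the highest zQ175 nZFP library of 6M_8M, R5, was the one whose vector went against its label. Acat2 differed by 0.17, 0.13, 0.04, 0.05 and -0.03 (SE 0.04 to 0.07, adjusted p = 0.038, 0.054, 1, 0.68 and 0.8), called in 2M_6M. That call was lost without the libraries standing apart, at 0.13 (adjusted p = 0.12), while with the mouse as a block Acat2 was called in 2M_8M, at 0.16 (adjusted p = 0.012). Hmgcs1 in zQ175 nZFP libraries had 122, 127 and 140 CPM in 2M_6M, 118, 130 and 157 CPM in 2M_8M, 106, 115 and 140 CPM in 6M_8M, 117, 128 and 141 CPM in 6M_10M, and 103, 114 and 122 CPM in 6M_12M. Mvk in the same libraries had 15.7, 16.8 and 20.2 CPM in 2M_6M, 15.2, 17.6 and 23.5 CPM in 2M_8M, 13.1, 16 and 17.8 CPM in 6M_8M, 15.9, 17.1 and 26.3 CPM in 6M_10M, and 17, 18.9 and 20.9 CPM in 6M_12M. Neither was called, at -0.11, -0.02, -0.03, 0.06 and -0.04 for Hmgcs1 (SE 0.05 to 0.07) and -0.15, -0.07, -0.06, 0.01 and -0.05 for Mvk (SE 0.06 to 0.12). Pmvk was higher in 2M_8M, by 0.34 (SE 0.10, adjusted p = 0.038).

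Msmo1 in zQ175 nZFP libraries had 59.8, 64.1 and 71.6 CPM in 2M_6M, 49.5, 73.7 and 107 CPM in 2M_8M, 37.6, 48 and 55.2 CPM in 6M_8M, 54.8, 59.4 and 102 CPM in 6M_10M, and 44.9, 56.4 and 66.6 CPM in 6M_12M, the highest value of 6M_10M being that of R2, a library standing apart. It differed by 0.02, 0.30, 0.05, 0.35 and -0.03 (SE 0.09 to 0.13, adjusted p = 0.93, 0.14, 1, 0.19 and 0.93) and was not called. Without the libraries standing apart it was called in 2M_6M, at 0.25 (adjusted p = 0.016). Tm7sf2 was lower in 2M_6M with no overlap of the groups, 6.68 ± 0.837 CPM in zQ175 nZFP libraries (n = 8) and 10 ± 3.58 CPM in zQ175 DBD libraries (n = 7), at -0.60 (SE 0.13, adjusted p = 0.00088), and by -0.38 without the libraries standing apart (adjusted p = 0.0054). The other 10 enzymes of the sterol branch were not called in any paradigm.

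Apoe in zQ175 nZFP libraries had 1863, 2077 and 2286 CPM in 2M_6M, 1926, 2477 and 3325 CPM in 2M_8M, 1432, 1832 and 2446 CPM in 6M_8M, 1472, 1866 and 3826 CPM in 6M_10M, and 1871, 2259 and 2562 CPM in 6M_12M. It differed by 0.07, 0.28, -0.01, 0.17 and 0.00 (SE 0.09 to 0.14, adjusted p = 0.59, 0.04, 1, 0.58 and 0.99), called in 2M_8M with overlapping ranges. The call was lost with the mouse as a block, at 0.15 (adjusted p = 0.21), and with Estop as the control, at 0.17 (adjusted p = 0.35). Astrocyte markers summed to 2265 to 4401 CPM (median 3550) in zQ175 nZFP libraries, against 2111 to 4027 CPM (median 3476) in zQ175 DBD libraries, and 1, 0, 0, 0 and 0 of 10 were called. Abca1 had 48.5, 57.6 and 63.8 CPM in 2M_6M, 33.5, 41.8 and 70.7 CPM in 2M_8M, 57.7, 66.9 and 80.9 CPM in 6M_8M, 27, 64.9 and 77 CPM in 6M_10M, and 50.2, 65.4 and 69.7 CPM in 6M_12M and was not called, at 0.16, -0.08, 0.05, -0.07 and 0.22 (SE 0.12 to 0.19). Stard4 was higher in 2M_6M, by 0.24 (SE 0.08, adjusted p = 0.023), and by 0.16 without the libraries standing apart, no longer called (adjusted p = 0.073). Soat1, Npc1, Npc2, Srebf1 and Nr1h2 were not called in any paradigm.

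Taking the mouse as a block changed which members passed in zQ175. Members called were 1, 3, 0, 0 and 2 higher and 0, 1, 0, 0 and 0 lower under this block, namely Cyp46a1 in 2M_6M, Cyp46a1, Acat2, Srebf2 and, lower, Tm7sf2 in 2M_8M, and Cyp46a1 and Srebf2 in 6M_12M. Of all genes tested, 4.67%, 6.95%, 0.0312%, 0.638% and 2.32% were called under it, in place of 23.2%, 7.06%, 0.112%, 0.972% and 1.25%. With Estop as the control the calls were Cyp46a1 in 2M_6M and Cyp46a1 and Acat2 in 2M_8M, at 0.24, 0.24 and 0.17. The share of all genes called was then 7.38%, 5.23%, 0.075%, 0.783% and 1.56%. Cyp46a1 was thus called in both paradigms injected at 2 months against DBD, against Estop and with the mouse as a block. These fits share the zQ175 nZFP libraries and are not independent of each other. Only 3 zQ175 mice in 2M_6M and 4 in 2M_8M carried nZFP and DBD together.

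In WT mice, which hold no expanded allele, nZFP against DBD called 1 member in 5 paradigms, against 0.268%, 2.98%, 0.581%, 0.48% and 0.238% of all genes tested. That member was Pmvk in 2M_8M, with 29.9 ± 3.95 CPM in WT nZFP libraries (n = 8) and 22.1 ± 2.79 CPM in WT DBD libraries (n = 8), a log2 difference of 0.43 (SE 0.10, adjusted p = 0.022). The call was lost with the mouse as a block. In 2M_8M the length index also differed between WT nZFP and WT DBD libraries, as given above. Cyp46a1 differed from WT DBD by 0.07, -0.02, 0.20, 0.12 and 0.09 (SE 0.05 to 0.11), and Srebf2 by 0.09, -0.09, 0.17, 0.17 and 0.13 (SE 0.08 to 0.11), neither called. Levels in WT nZFP are given as the lowest and highest of the 5 group medians, with the lowest and highest of the 40 libraries in brackets. Cyp46a1 ran at 264 to 293 CPM (210 to 334). Acat2 ran at 48.2 to 51.6 CPM (42.7 to 57.3). Hmgcs1 ran at 127 to 145 CPM (112 to 175). Mvk ran at 14.1 to 17.8 CPM (12.6 to 22.4). Msmo1 ran at 64.1 to 99.6 CPM (54.1 to 110). Srebf2 ran at 292 to 331 CPM (179 to 385), with the lowest library, R8 of 6M_8M, among those standing apart. Insig1 ran at 59 to 63.6 CPM (45.8 to 82.2). Abca1 ran at 32.5 to 55.5 CPM (26.8 to 71.4). Apoe ran at 2122 to 3189 CPM (1813 to 3693). None of these 9 genes was called between WT nZFP and WT DBD libraries in any paradigm.

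The interaction, the repressor difference in zQ175 minus that in WT, called 1 member, against 3.27%, 1.99%, 0%, 0.0505% and 0% of all genes tested. Acat2 in 2M_6M had an interaction of 0.30 (SE 0.09, adjusted p = 0.044), from 0.17 in zQ175 and -0.12 in WT mice. Without the libraries standing apart it was 0.22 (adjusted p = 0.1). For Cyp46a1 the interaction was 0.36, 0.30, -0.03, -0.01 and 0.23 (SE 0.07 to 0.16, adjusted p = 0.063, 0.066, 0.96, 0.93 and 0.92), so its change under nZFP was not shown to differ between zQ175 and WT mice in the fit without a block. With the mouse as a block 2 interactions passed, both in 2M_8M, Cyp46a1 at 0.34 (adjusted p = 0.01) and Acat2 at 0.24 (adjusted p = 0.017). Of all genes tested, 0.683%, 4.07%, 0%, 0.00631% and 0.0966% passed under this block. In that fit both genes changed more under nZFP in zQ175 than in WT mice in 2M_8M. Virus and length index cannot be fully told apart in that paradigm.

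Under nZFP in both genotypes, zQ175 nZFP against WT nZFP asked which genotype differences were left. Numbers called were 0, 1, 1, 2 and 2 higher and 0, 0, 7, 5 and 6 lower, or 0, 3.12, 25, 21.9 and 25 percent of the 32, against 1.54%, 6.67%, 17.1%, 19.6% and 16.7% of all genes tested. Of all genes, 0.874%, 4.05%, 7.89%, 10.3% and 7.93% were higher and 0.664%, 2.62%, 9.18%, 9.28% and 8.75% lower. Acat2 differed by -0.11, -0.13, -0.27, -0.25 and -0.34 (SE 0.04 to 0.07) and Cyp46a1 by -0.17, -0.18, -0.36, -0.43 and -0.22 (SE 0.06 to 0.11), Acat2 being called in the 3 paradigms injected at 6 months and Cyp46a1 in 6M_8M and 6M_10M. Msmo1 was lower in 6M_8M and 6M_12M, at -0.49 (SE 0.09, adjusted p = 0.00018) and -0.58 (SE 0.13, adjusted p = 0.001), and Apoe in the same paradigms, at -0.30 (SE 0.10, adjusted p = 0.026) and -0.36 (SE 0.11, adjusted p = 0.015). Hmgcs1 was lower in 6M_8M and 6M_12M, Insig1 in 6M_10M and 6M_12M, Idi1 and Cyp51 in 6M_8M, Srebf2 and Scap in 6M_10M and Stard4 in 6M_12M, at -0.21, -0.16, -0.27, -0.33, -0.33, -0.26, -0.36, -0.16 and -0.35 in this order. Mvk was higher in 6M_10M and 6M_12M, Tm7sf2 in 6M_10M, Srebf1 in 2M_8M and 6M_12M and Abca1 in 6M_8M, at 0.34, 0.18, 0.53, 0.18, 0.29 and 0.40. No member was called in 2M_6M, where 4 had an unadjusted p under 0.05, whereas without the libraries standing apart Cyp46a1, Idi1 and Hmgcs1 passed there as lower, at -0.18, -0.29 and -0.22. Leaving out those libraries, zQ175 nZFP R2 among them, also moved values of 6M_10M. Mvk, Tm7sf2 and Srebf2 were then 0.20, 0.33 and -0.22, still called, and Msmo1, Apoe and Hsd17b7 passed as well, at -0.24, -0.39 and 0.27. The calls of Apoe in 6M_8M and 6M_12M were lost, at -0.23 and -0.24 (adjusted p = 0.1 and 0.17), while Tm7sf2 and Srebf2 passed in 6M_8M and Cyp46a1 in 6M_12M, at 0.34, -0.21 and -0.31. A call in one paradigm and none in another is not a difference between paradigms; that was tested separately, as given next for the genotype and repressor comparisons.

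A fit of all 30 groups gave each member 1 value over the paradigms and tested whether the paradigms differed. Averaged over the 5 paradigms, 19 of 32 members differed between zQ175 DBD and WT DBD (7 higher and 12 lower, 59.4%), against 46.9% of the 16792 genes tested. Higher were 24.9% of these genes, and lower 22%. The lower ones were led by Cyp46a1 at -0.44 (SE 0.03, adjusted p = 1.6e-26), Msmo1 at -0.42 (SE 0.05, adjusted p = 3.5e-12), Acat2 at -0.35 (SE 0.03, adjusted p = 1e-28) and Apoe at -0.32 (SE 0.05, adjusted p = 2.3e-09). Srebf2 stood at -0.27 (SE 0.04, adjusted p = 1.4e-08) and Insig1 at -0.23 (SE 0.04, adjusted p = 4.3e-07), and Idi1, Hmgcs1, Cyp51, Scap, Fdft1 and Stard4 at -0.15 to -0.09. Higher were Tm7sf2 at 0.37 (SE 0.06, adjusted p = 8.3e-09), Mvk at 0.21 (SE 0.03, adjusted p = 5.1e-08), Abca1 at 0.20 (SE 0.07, adjusted p = 0.015) and Hsd17b7 at 0.20 (SE 0.04, adjusted p = 2.1e-05), followed by Pmvk, Nsdhl and Srebf1 at 0.11 to 0.13. The median absolute log2 difference was 0.11 for the members and 0.13 for all genes tested.

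Averaged in the same way, nZFP against DBD in zQ175 called 7 of 32 members (21.9%), against 17.1% of all genes. The shares of all genes were 8.61% higher and 8.52% lower. Cyp46a1 was higher by 0.26 (SE 0.03, adjusted p = 1.4e-10), Srebf2 by 0.24 (SE 0.04, adjusted p = 3.3e-06) and Stard4 by 0.13 (SE 0.04, adjusted p = 0.0053), and Scap and Acat2 by 0.08 and 0.07. Tm7sf2 was lower at -0.20 (SE 0.06, adjusted p = 0.0074) and Sc5d, the sterol desaturase, at -0.11 (SE 0.02, adjusted p = 0.00018). In WT mice, 2 of 32 were called, against 3.33%, namely Pmvk at 0.22 (SE 0.05, adjusted p = 0.0043) and Stard4 at 0.13 (SE 0.04, adjusted p = 0.017). An F-test with 4 degrees of freedom found no member whose genotype or repressor difference varied between the 5 paradigms at an adjusted p under 0.05, against 0.363% and 3.36% of all genes. At an unadjusted p under 0.05 there were 0 and 6 members. For the repressor, Srebf2 and Cyp46a1 had adjusted p = 0.071 and 0.19 in this test. With the length index as a covariate Srebf2 passed it (adjusted p = 0.021, with 1.73% of all genes passing), and no other member did. In the test without that covariate, calls after injection at 2 months and none at 6 months do not show that the response differed.

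The control viruses, DBD against Estop, called no member in zQ175 or WT mice, against 4.5%, 0.184%, 0.0562%, 0.234% and 0.29% of all genes in zQ175 and 0.108%, 0.196%, 0.188%, 0.669% and 0.167% in WT mice. In edgeR, unadjusted p-values under 0.05 were found for 9, 1, 0, 0 and 1 members in zQ175 and 3, 0, 4, 1 and 1 in WT mice, and DESeq2 called 2 members in zQ175 and none in WT mice. In 2M_6M of zQ175 Srebf2 differed by -0.29 (SE 0.11, adjusted p = 0.098). Estop levels are given in the same form, over 40 zQ175 Estop and 37 WT Estop libraries. Cyp46a1 had 194 to 218 CPM (167 to 256) in zQ175 Estop and 252 to 299 CPM (213 to 329) in WT Estop groups. Acat2 had 37.5 to 41.6 CPM (32.1 to 45.2) in zQ175 Estop and 47.8 to 54.9 CPM (44.6 to 63.2) in WT Estop groups. Msmo1 had 47.2 to 62.7 CPM (43.1 to 73.3) in zQ175 Estop and 59.7 to 85.7 CPM (47.3 to 106) in WT Estop groups. For Cyp46a1 and Acat2 the highest zQ175 median was below the lowest WT median. Hmgcs1 had 119 to 137 CPM (110 to 145) in zQ175 Estop and 133 to 153 CPM (119 to 209) in WT Estop groups. Mvk had 16.2 to 20.3 CPM (14.2 to 22.9) in zQ175 Estop and 13.5 to 16.4 CPM (12.4 to 20.8) in WT Estop groups. With Estop as the control in both genotypes, these 5 genes were called in all 5 paradigms, in the direction they had under DBD. Srebf2 had 243 to 312 CPM (206 to 331) in zQ175 Estop and 278 to 365 CPM (236 to 384) in WT Estop groups. Insig1 had 51.4 to 54.7 CPM (39.4 to 64.7) in zQ175 Estop and 57.8 to 69.4 CPM (49.3 to 82.3) in WT Estop groups. Both had the lower range of medians in zQ175, and the ranges overlapped for Srebf2 and were apart for Insig1. Apoe had 1656 to 2339 CPM (1444 to 2799) in zQ175 Estop and 2010 to 2919 CPM (1726 to 3458) in WT Estop groups. Abca1 had 41.9 to 60.2 CPM (28.4 to 82.3) in zQ175 Estop and 37.6 to 54.3 CPM (22 to 83.4) in WT Estop groups. The ranges of medians overlapped for both.

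Other genes of the pathway, in 5 lists, placed the members among their neighbours. The share of all genes called between the genotypes was 28.7%, 18.7%, 9.12%, 24.2% and 18.3%. Of 7 further genes of cholesterol synthesis, 1, 1, 0, 1 and 1 were lower in zQ175 DBD libraries and none higher, and each call was Por, the electron donor of the microsomal enzymes, at -0.35 to -0.19 (SE 0.05 to 0.06, adjusted p at most 0.019) in 4 paradigms. Of 12 genes of SREBP processing and feedback, 2, 1, 1, 2 and 2 were lower and 2, 1, 0, 1 and 1 higher, together 33.3, 16.7, 8.33, 25 and 25 percent of the list. Mbtps1, the protease that first cuts SREBP2, was lower in all 5 paradigms at -0.46 to -0.31 (SE 0.06 to 0.07, adjusted p at most 0.00078). Erlin1, an endoplasmic reticulum protein that restrains SREBP, was lower in 6M_10M and 6M_12M at -0.34 to -0.27 (SE 0.05 to 0.07, adjusted p at most 0.0048), and Rnf145 lower in 2M_6M at -0.18 (SE 0.06, adjusted p = 0.015). Ubxn4 was higher in 3 paradigms at 0.13 to 0.18 (SE 0.04 to 0.06, adjusted p at most 0.042), and Mbtps2, the second protease, in 2M_6M and 2M_8M at 0.17 to 0.18 (SE 0.05 to 0.07, adjusted p at most 0.04).

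Of 11 genes of fatty acid synthesis, 4, 4, 1, 2 and 3 were lower and none higher, which is 36.4, 36.4, 9.09, 18.2 and 27.3 percent of the list beside 28.7%, 18.7%, 9.12%, 24.2% and 18.3% of all genes. These included the elongase Elovl5 in all 5 paradigms at -0.25 to -0.14 (SE 0.04 to 0.07, adjusted p at most 0.032), and the desaturases Fads1 in 4 at -0.33 to -0.25 (SE 0.05 to 0.06, adjusted p at most 0.00013) and Fads2 in 2 at -0.30 to -0.27 (SE 0.07 to 0.10, adjusted p at most 0.035). Of 24 LXR targets and other transport genes, 4, 3, 1, 5 and 2 were higher and 7, 2, 1, 2 and 2 lower, together 45.8, 20.8, 8.33, 29.2 and 16.7 percent of the list. Abca7, a lipid pump, was higher in all 5 paradigms at 0.48 to 1.08 (SE 0.10 to 0.15, adjusted p at most 0.028), Nceh1, a cholesteryl ester hydrolase, in 4 at 0.25 to 0.28 (SE 0.05 to 0.07, adjusted p at most 0.01), and Stard5 in 2 at 0.46 to 0.53 (SE 0.09 to 0.11, adjusted p at most 0.0012). Clu, an apolipoprotein made by astrocytes, was lower in all 5 at -0.39 to -0.25 (SE 0.07 to 0.08, adjusted p at most 0.038), Lcat, which esterifies cholesterol on ApoE particles, in 4 at -0.47 to -0.30 (SE 0.08 to 0.12, adjusted p at most 0.042), and the pump Abcg1 in 2M_6M at -0.21 (SE 0.08, adjusted p = 0.033). Of up to 5 tested genes of oxysterol synthesis, Cyp27a1, a sterol hydroxylase outside the neuronal route, was higher in 4 paradigms at 0.42 to 0.63 (SE 0.12 to 0.16, adjusted p at most 0.048), and Cyp7b1, which metabolises oxysterols, in 2M_6M at 0.42 (SE 0.09, adjusted p = 0.00059). Cyp46a1 and Cyp27a1 thus moved in opposite directions in 2M_6M, 2M_8M, 6M_10M and 6M_12M.

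Under nZFP against DBD in zQ175, the calls in these lists fell in 2M_6M, apart from Mbtps1, which was called in 2M_8M as well. In 2M_6M the calls made up 28.6, 33.3, 18.2 and 25 percent of the synthesis, SREBP, fatty acid and transport lists. All genes tested were called at 23.2% there, and at 7.06%, 0.112%, 0.972% and 1.25% in the other paradigms, so calls of genes in general also lay mostly in 2M_6M. Of synthesis genes, Por was higher in 2M_6M, at 0.15 (SE 0.05, adjusted p = 0.021). Of SREBP genes, Mbtps1 was higher at 0.20 to 0.32 (SE 0.06 to 0.07, adjusted p at most 0.043); in 2M_6M Insig2 and Ubxn4 were lower at -0.23 (SE 0.06, adjusted p = 0.0063) and -0.22 (SE 0.05, adjusted p = 0.00047). The fatty acid genes Fasn and Acly were higher at 0.51 (SE 0.12, adjusted p = 0.0027) and 0.35 (SE 0.09, adjusted p = 0.0062). Among transport genes Abcg1, Lcat and Stard3 were higher at 0.32 (SE 0.08, adjusted p = 0.0021), 0.32 (SE 0.12, adjusted p = 0.047) and 0.18 (SE 0.05, adjusted p = 0.011). Gramd1c, Stard5 and Abca7 were lower at -0.89 (SE 0.29, adjusted p = 0.023), -0.35 (SE 0.09, adjusted p = 0.0042) and -0.33 (SE 0.11, adjusted p = 0.023), and no oxysterol gene was called. The zQ175 DBD group of 2M_6M holds the library R3, which stood apart. When the libraries standing apart were left out, Gramd1c and Lcat were no longer called, at -0.78 and 0.25 (adjusted p = 0.071 and 0.15), while the other list genes named here for 2M_6M were still called.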

How the data were processed

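PolyA RNA-seq of mouse striatum was analysed in 233 libraries. The authors deposited 1 table of RSEM expected counts and 1 table of length-normalised values over 41135 entries, of which 6 are vector sequences (at most 0.669% of a library) and stayed out of library sizes and tests. RSEM and GRCm38 are named in the submitters' processing notes; annotation release and counting settings were not given in the sources used here. The second deposited table is named for FPKM, but each column sums to 1000000, so it was read as TPM, used for levels between genes. Expected counts (90.3% whole) were rounded to whole numbers.

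Per paradigm, edgeR 4.0.16 (R 4.3.3) was fitted to the 6 groups with sex as a covariate (filterByExpr, TMM, robust quasi-likelihood test), and 1 fit of all 30 groups gave averages over paradigms and a test of differences between them. P-values were adjusted by Benjamini-Hochberg over all genes tested, with calls under 0.05. CPM are TMM-scaled over all libraries, and fold changes are on the log2 scale. The procedure was tested on simulated data.

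Sample identifiers in the labels tie 2 hemispheres to 1 mouse, and libraries of a mouse deviated together (estimated correlation 0.132 to 0.553 over the paradigms). Alternatives were RLE size factors, DESeq2 1.42.0, no filter, no sex covariate, the length index as a covariate, leaving out libraries against their labels or standing apart, the mouse as a block or as a random effect (limma 3.58.1), the replicate number as a block, and Estop in place of DBD. Values in every group are given for the members called in the same direction in at least 3 of 5 paradigms and, as examples of each role, for Hmgcs1, Srebf2, Insig1, Abca1, Apoe and Cyp46a1 (9 genes in all), with WT nZFP and Estop groups over the paradigms together; other members are named where called. Of each pathway list, up to 3 genes per direction are named, those called in the most paradigms first. Some genes of these lists enter the counts but are not reported by name here. The members, rules and lists were chosen with earlier results of these data known.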

Additional observations from a re-analysis of the deposited data

Results flagged for a closer look

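Single libraries lay far from the rest of their group by Dixon's test at the 95% level in 25 of 180 combinations of gene and group, taken over the 9 genes with printed values in the nZFP and DBD groups; chance alone gives about 1 in 20. In all, 19 of the 25 came from 4 libraries that also stood apart by the length index. The library zQ175 DBD R3 of 2M_6M had 30 CPM of Acat2 (other libraries of the group 39.4 to 43.8 CPM), 118 CPM of Msmo1 (other libraries of the group 47.6 to 62.5 CPM), 71.1 CPM of Srebf2 (other libraries of the group 200 to 239 CPM), 28 CPM of Insig1 (other libraries of the group 50.1 to 63.7 CPM), 2913 CPM of Apoe (other libraries of the group 1529 to 2125 CPM) and 108 CPM of Cyp46a1 (other libraries of the group 184 to 232 CPM). Library R2 of zQ175 nZFP in 6M_10M had 26.3 CPM of Mvk (other libraries of the group 15.9 to 17.7 CPM), 102 CPM of Msmo1 (other libraries of the group 54.8 to 60.9 CPM), 124 CPM of Srebf2 (other libraries of the group 260 to 276 CPM), 39.1 CPM of Insig1 (other libraries of the group 51.4 to 56.1 CPM), 27 CPM of Abca1 (other libraries of the group 61.5 to 77 CPM) and 3826 CPM of Apoe (other libraries of the group 1472 to 1883 CPM). In WT DBD of 6M_10M, R2 had 26.1 CPM of Mvk (other libraries of the group 13.3 to 17 CPM), 111 CPM of Msmo1 (other libraries of the group 69.7 to 83.9 CPM), 147 CPM of Srebf2 (other libraries of the group 282 to 302 CPM), 22.4 CPM of Abca1 (other libraries of the group 48.7 to 65.9 CPM) and 3865 CPM of Apoe (other libraries of the group 1889 to 2655 CPM). In WT nZFP of 6M_8M, R8 had 98.9 CPM of Msmo1 (other libraries of the group 54.1 to 68.2 CPM) and 179 CPM of Srebf2 (other libraries of the group 281 to 318 CPM). All 4 were high in Msmo1 and low in Srebf2. Among libraries that did not stand apart, WT nZFP R5 of 2M_6M had 172 CPM of Hmgcs1 (other libraries of the group 138 to 154 CPM) and 19.1 CPM of Mvk (other libraries of the group 14.7 to 16 CPM). R7 of zQ175 DBD in 2M_8M had 96.5 CPM of Msmo1 (other libraries of the group 50.2 to 67.3 CPM), and R4 of WT nZFP in 2M_8M had 82.2 CPM of Insig1 (other libraries of the group 55.1 to 67.5 CPM). R5 of WT nZFP in 6M_10M had 249 CPM of Cyp46a1 (other libraries of the group 278 to 304 CPM), and R5 of zQ175 nZFP in 6M_8M, whose vector went against its label, had 49.5 CPM of Acat2 (other libraries of the group 36.1 to 41 CPM). The response to nZFP differed between genotypes for Acat2 in 2M_6M, with an interaction of 0.30 (edgeR adjusted p = 0.044), and not without the libraries standing apart, at 0.22 (adjusted p = 0.1).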

How the results depend on the processing

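Counts of member calls are summed over the 5 paradigms unless said otherwise. Of 707 recomputed values of called members, 646 kept direction and call, 60 lost the call and 1 reversed: Fdps between zQ175 and WT in 2M_6M, from 0.33 under DBD, was -0.01 with Estop in place of DBD. Of 37 genotype calls, 33 to 37 were kept under each alternative that keeps DBD as control, and 25 with Estop. Of 9 repressor calls in zQ175, 2 were kept with Estop and 2 with the mouse as a replicate block, and 6 to 9 otherwise.

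The length index as a covariate gave the most calls: 25 genotype calls higher in place of 11, 13 repressor calls higher in place of 8 and 2 lower in place of 1 in zQ175, 4 in WT in place of 1, 6 interactions in place of 1, and 15 higher and 28 lower in place of 6 and 18 between zQ175 nZFP and WT nZFP. The share of all genes called rose under this covariate in most paradigms too, for the genotype to 28.7, 34.4, 13.9, 39.4 and 35.8% in the order of the paradigms in place of 28.7, 18.7, 9.12, 24.2 and 18.3%, and between zQ175 nZFP and WT nZFP to 18% in place of 6.67% in 2M_8M. It also gave 1 control virus call in WT in place of 0 (Abca1 in 6M_10M), averages over paradigms of 8 higher in zQ175 in place of 5 and 4 in WT in place of 2, and 1 repressor difference between paradigms in place of 0 (Srebf2). Without the libraries standing apart, averages under nZFP gave 4 lower in zQ175 in place of 2, and 4 higher and 1 lower in WT in place of 2 and 0. Without the libraries against their labels, WT gave 2 repressor calls. The share of all genes called between zQ175 DBD and WT DBD was then 16.8% in place of 9.12% in 6M_8M, and 25.9% in place of 28.7% in 2M_6M. Values of 6M_8M with all libraries kept thus depend on the 3 libraries of that paradigm whose vector went against the label. DESeq2 gave 3 repressor calls in WT, 6 interactions and 2 control virus calls in zQ175 (Fdps and Pmvk in 2M_6M). With no filter on low counts there were 5 repressor calls higher in zQ175 and 0 interactions, and with no sex covariate 0 interactions. Estop in place of DBD gave 3 repressor calls higher and 0 lower in zQ175 and 0 in WT.

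The mouse as a replicate block gave 0 repressor calls in WT and 2 interactions, and the mouse as a random effect 4 and 6. In 2M_8M the share of all genes with an interaction was 4.07% and 6.25% in these fits, in place of 1.99%. The share called under the repressor in WT was 1.4% and 10.5% there, in place of 2.98%. The replicate number as a replicate block gave 2 repressor calls lower in zQ175, 3 interactions and 10 calls higher between zQ175 nZFP and WT nZFP; libraries with 1 number share only that number. The cause was not tested for any of these. RLE size factors moved none of these counts by over 1.5 times. With 6 to 8 libraries a group, and SEs of 0.04 to 0.20 on the log2 scale for the 9 genes in the genotype comparison, a difference of the size of these errors was not detectable in a single paradigm.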
